A study of Mus musculus with 16 samples.

Results

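The heat shock chaperones described here are 10 mouse genes, Hspa1a, Hspa1b, Hspa8, Hsph1, Hsp90aa1, Hspb1, Dnajb1, Bag3, Hspd1 and Hspe1, taken by gene symbol from the 47729 genes with values in every library. Transcripts were measured in 16 libraries from cochleae of mice at postnatal day 4 (P4), with 4 replicates in each of 4 groups. Control mice carried GLAST CreERT/+ and Rpl22 HA/+, and DTR mice carried Lgr5 DTR/+ in addition. According to the study's methods all mice received diphtheria toxin (DT) and tamoxifen at P1, whereas the sample labels record the controls as untreated and the others as DTR treated.

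DT kills cells that carry the DT receptor, here cells that express Lgr5, a marker of a subset of cochlear supporting cells. Tamoxifen switches on Cre in cells that express GLAST (Slc1a3), and Cre adds an HA tag to the ribosomal protein Rpl22 in those cells. Each replicate was a pool of cochleae, freed of spiral ganglion, lateral wall and Reissner's membrane, and of each homogenate 5% was kept as input (RNA of the whole tissue) and 95% was immunoprecipitated with an antibody to HA (IP, RNA on tagged ribosomes). The 16 libraries therefore came from 8 pools. In such bulk samples fewer cells of a type and less RNA per cell cannot be told apart.

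Heat shock proteins hold unfolded proteins in solution and help them fold. Small heat shock proteins such as Hspb1 bind unfolding clients, J-domain proteins such as Dnajb1 hand clients to HSP70 proteins, and nucleotide exchange factors such as Hsph1 and Bag3 release them, while Hsp90aa1 finishes the folding of signalling proteins and the Hspd1 and Hspe1 chaperonin works in mitochondria. When cells are stressed, heat shock factor 1 (HSF1) binds repeats of a 5-base element in the promoters of the inducible genes and raises their transcription. In the inner ear the heat shock response is known for protecting hair cells from heat, noise and ototoxic drugs.

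The promoters are shown first because the element that HSF1 reads is what links several of these genes. Promoters of 8 of the 10 genes were found in the RefSeq table (build GRCm38.p6), and Hspa8 and Hsp90aa1 were not among them. Within the 250 bases before the start, 2 adjoining blocks of the element (GAANNTTC or TTCNNGAA, each its own reverse complement, so both strands are covered) occurred in 6 of the 8, namely Hspa1a, Hspa1b, Hsph1, Hspb1, Hspd1 and Hspe1, against 14.5% of 27025 genes with a promoter in that table. The form with 3 alternating GAA and TTC blocks 2 bases apart occurred in Hspd1 and Hspe1, against 0.514% of all genes. No match was found for Dnajb1 or Bag3 in this window. The windows of 50 bases around the matches are given 5′ to 3′ on the strand of the gene, with the matches in capitals.
Hspa1a (chr17:34972232-34972281, minus strand): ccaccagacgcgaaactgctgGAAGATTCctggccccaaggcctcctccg
Hspa1b (chr17:34959314-34959363, minus strand): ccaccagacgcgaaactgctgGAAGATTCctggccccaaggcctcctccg
Hsph1 (chr5:149636341-149636390, minus strand): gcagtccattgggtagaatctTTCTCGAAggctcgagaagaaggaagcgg
Hspb1 (chr5:135887791-135887840, plus strand): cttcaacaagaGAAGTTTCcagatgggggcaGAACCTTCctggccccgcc
Hspd1 (chr1:55088043-55088092, minus strand): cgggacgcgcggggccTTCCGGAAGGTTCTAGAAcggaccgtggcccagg
Hspe1 (chr1:55088043-55088092, plus strand): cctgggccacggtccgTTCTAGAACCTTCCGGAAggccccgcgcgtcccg
The windows of Hspa1a and Hspa1b are the same letters at the same distance from the start (positions -104 to -97), and the 250 bases before the start differed at 3 positions between both genes (98.8% the same). Hspb1 has 2 separate matches between positions -117 and -90. Hspd1 and Hspe1 lie head to head on chromosome 1, so their window is 1 stretch of DNA read from both strands, in which 3 overlapping matches form a run of alternating blocks. A match describes these letters and is no evidence that HSF1 was bound.

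Levels between genes are compared as CPM (reads of a gene over all reads counted on genes, times 1000000) per kilobase of exon, from the exon lengths of GENCODE M21. The constitutive HSP70 gene Hspa8, the main housekeeping chaperone of the cytosol, stood highest in every group, at 193 ± 62.1 CPM per kilobase in control input (SD, n = 4), and its 4 libraries did not overlap those of the next gene. Hspd1 (68.3 ± 6.26), Hsp90aa1 (55.7 ± 3.31) and Hspe1 (49.3 ± 4.84) followed in control input, where the libraries of Hspd1 stood above those of Hsp90aa1 while Hsp90aa1 and Hspe1 overlapped. Dnajb1 (23.2 ± 2.43) and Bag3 (19.8 ± 2.43) overlapped each other and stood apart from the genes above and below. Hspb1 (8.55 ± 1.77) and Hsph1 (8.09 ± 1.82) overlapped as well. The exon length counts the exons of all annotated transcripts of a gene. It exceeded the longest transcript in Hspe1 (1474 against 964 bases), Hspd1 (2642 against 2423) and Hsp90aa1 (3931 against 3281). The same held for Hsph1 (7266 against 4764), Hspb1 (1031 against 930), Hspa8 (4301 against 3158) and Dnajb1 (3204 against 2996). The order and overlap of Hspd1, Hsp90aa1 and Hspe1, and of Hspb1 and Hsph1, can therefore change with the length used. The overlap of Dnajb1 and Bag3 can change with it as well. Levels per kilobase of the longest transcript were not computed.

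**Figure D1:**
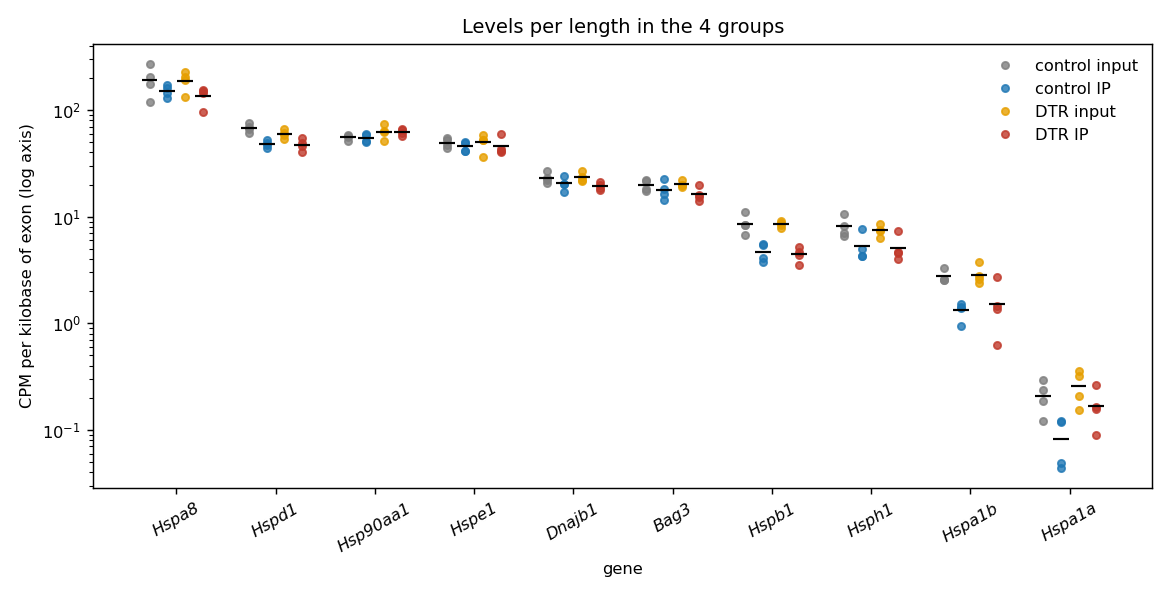
Level of each gene in CPM per kilobase of exon (log axis) in the 16 libraries, 1 point per library and a black line at each group mean, with genes ordered by their mean in control input. Hspa8 stands highest and Hspa1a lowest in all 4 groups, and the 4 groups of a gene lie close together compared with the distances between Hspa8, Dnajb1 and Hspa1b.

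The stress-inducible HSP70 genes were the lowest of the set. Hspa1b reached 2.75 ± 0.355 CPM per kilobase in control input and Hspa1a 0.209 ± 0.0736, both in SD over 4 libraries. With the same exon lengths, the order of neighbouring means differed between groups. Hsp90aa1 stood above Hspd1 in the other 3 groups, with overlap in control IP (54.9 ± 5.08 against 48.3 ± 3.40 CPM per kilobase) and DTR input (62.5 ± 9.35 against 59.9 ± 5.80) and without overlap in DTR IP (62.6 ± 3.93 against 47.3 ± 5.88). Hsph1 stood above Hspb1 in both IP groups, where their libraries overlapped (5.32 ± 1.64 against 4.68 ± 0.918 in control IP). Together the 10 genes made up between 1177 and 1884 CPM in control input and between 995 and 1261 CPM in DTR IP, and Hspa8 alone accounted for 49.7% to 55.2% of the group means of that sum.

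Reads could be shared between some of these genes and close copies. Of the 75-base windows in Hspa1a transcripts, 61.7% also occurred in other genes, mostly in Hspa1b, and the share was 55.8% for Hspa1b, 53.1% for Hsp90aa1 (mostly the pseudogene Gm12346), 47.3% for Hspb1 (Hsp25-ps1), 41.3% for Hspa8 (mostly Gm15459) and 33.7% for Hspd1 (mostly Hspd1-ps3). The levels of these 6 genes are uncertain to the extent that the counting moved or dropped such reads, which was not tested. The pseudogene Gm15459 was listed at 0 in all libraries and Hsp25-ps1 did not exceed 0.0725 CPM. In contrast Hspd1-ps3 had 19.5 ± 0.638 CPM in input and 13.3 ± 1.68 CPM in IP of the controls (SD, n = 4). Hspe1 shared 3.15% of its windows and Hsph1, Dnajb1 and Bag3 shared none, although Bag3 overlaps 2610306O10Rik, Hspa1a overlaps the antisense gene Gm20481, Hspa8 holds 3 small nucleolar RNA genes, and Hspd1 and Hspe1 overlap at their starts, where reads without strand cannot be assigned to one of them.

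Facts of the whole series that bear on these genes are few. Reads counted on genes ranged from 28089836 to 41966310 per library, so that 3 reads corresponded to between 0.0715 and 0.107 CPM. Lgr5 stood at 63.3 ± 3.03 CPM in control input and 15.9 ± 3.69 CPM in DTR input, and IP fell from 36.6 ± 3.99 CPM in the controls to 9.38 ± 1.40 CPM (SD, n = 4). Slc1a3, which drives Cre, was not higher in IP (236 ± 21.9 CPM against 281 ± 14.3 CPM in input of the controls), and of 8 markers of supporting cells and the greater epithelial ridge 3 were higher and 3 lower in control IP. In DTR, Slc1a3 was called lower in IP (215 ± 18.4 CPM against 271 ± 19.8 CPM in input). Of the same 8 markers 1 was higher and 2 were lower in DTR IP, Slc1a3 among the latter. Rpl22 lay between 39.5 and 56.4 CPM in all 16 libraries. Hbegf, the mouse counterpart of the human DT receptor, stood at 9.46 ± 0.726 CPM in control input and 15.1 ± 1.98 CPM in DTR input, and whether reads of the transgene were counted on it was not tested.

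Tests were run with limma on log2 values of quantile-normalized CPM plus 0.5 over the 16994 genes for which every library of some group reached 0.5 CPM, and a gene was called at an adjusted p (Benjamini-Hochberg over all tested genes) under 0.05. A fold change is given as LFC, the difference on that log2 scale, which understates changes of genes at a few CPM. Of the 10 chaperone genes 9 were tested, and Hspa1a did not reach the minimum.

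**Figure D2:**
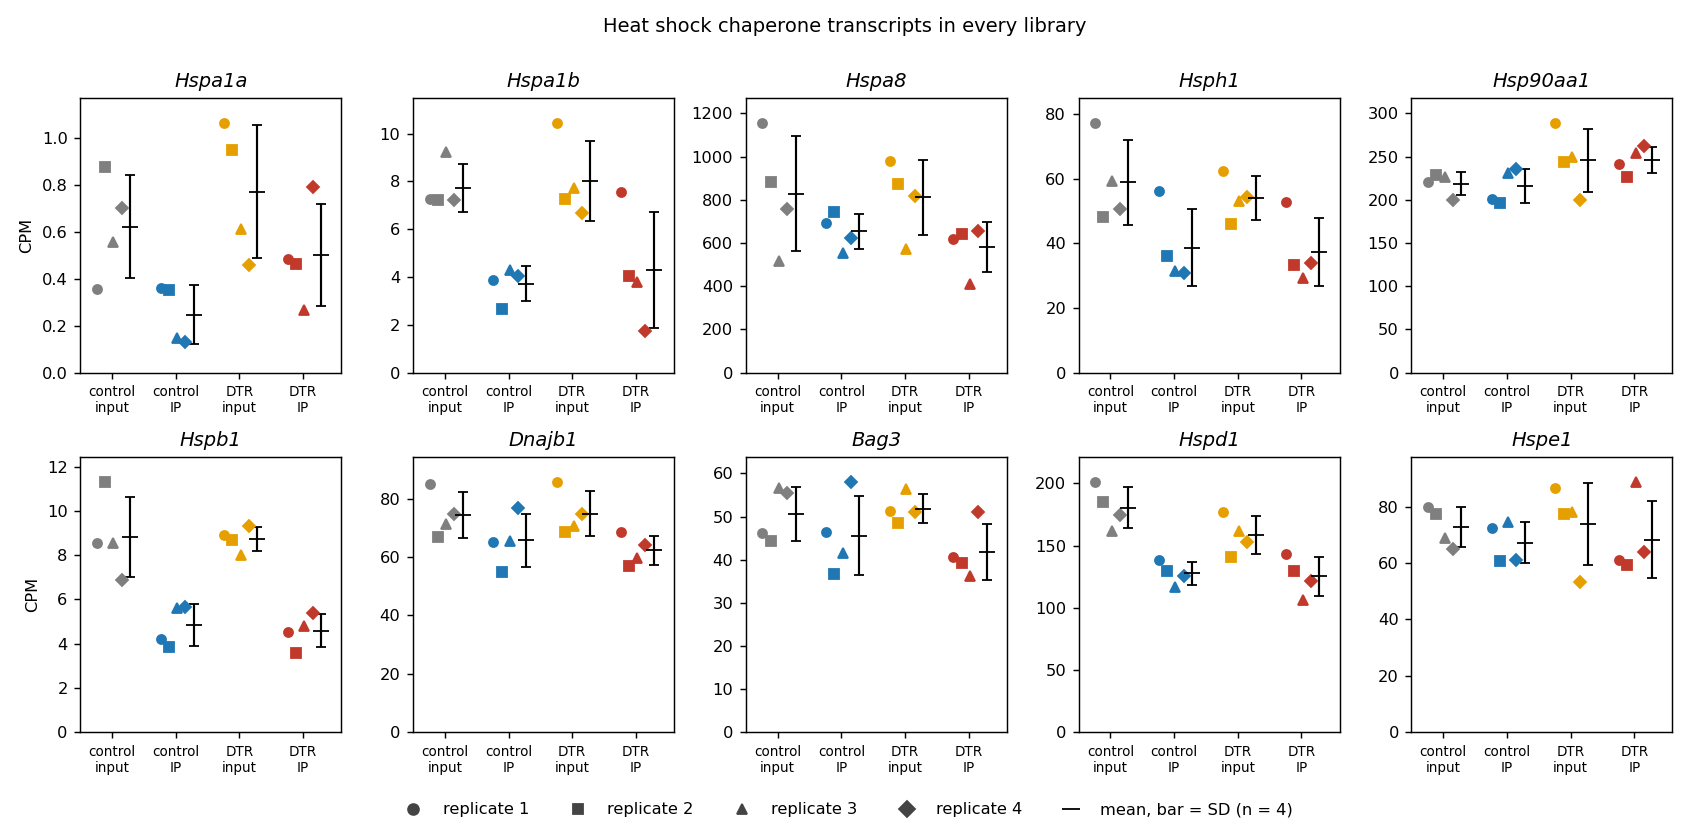
CPM of each gene in all 16 libraries, by group, with 1 symbol per replicate number, the mean as a black line and the SD as a bar (n = 4). Hspb1, Hspa1b and Hspd1 sit lower in control IP than in control input without overlap. For each gene the DTR and control libraries of the same sample type overlap.

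The first question is which of these transcripts were more or less abundant on ribosomes of GLAST-Cre+ cells than in the whole tissue. Of the 9 tested genes 4 fell in control IP against control input and 0 rose, and the same 4 genes, Hspa1b, Hspb1, Hsph1 and Hspd1, fell in DTR IP against DTR input, where again 0 rose. Over all tested genes 20.7% were called lower and 19.3% higher in the control comparison, and 20.5% lower and 18.6% higher in the DTR comparison. The median LFC of the 9 genes was -0.20 in control and -0.32 in DTR, beside -0.00 and -0.03 over all genes tested. In each of the 8 pools the IP library was lower than its own input library for all 4 of the genes that fell. These genes were picked by their calls in the same libraries, so this count is a description and no further support. Hspa8 and Dnajb1, which were not called, were lower in IP in 7 of the 8 pools.

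Hspb1 (HSP27), a small heat shock protein that holds unfolding proteins and binds actin, is on chromosome 5 (GENCODE M21, GRCm38). Its level in the 4 control input libraries was 8.55, 11.3, 8.54 and 6.88 CPM and in control IP 4.19, 3.84, 5.61 and 5.66 CPM. In DTR input it was 8.92, 8.70, 7.99 and 9.32 CPM and in DTR IP 4.53, 3.60, 4.80 and 5.39 CPM. All IP libraries were lower than all input libraries of the same genotype, with no overlap. The LFC was -0.70 (SE 0.193, adjusted p = 0.00705) in control and -0.86 (SE 0.193, adjusted p = 0.00168) in DTR. IP over input ranged from 0.340 to 0.822 over the 8 pools. Hspb1 was called in both comparisons under each of the 28 alternatives run.

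Hspd1 (HSP60) forms the mitochondrial folding chamber. In control input it stood at 201, 185, 162 and 174 CPM and in control IP at 139, 129.8, 117 and 125 CPM. The values in DTR input were 177, 141, 162 and 153 CPM and in DTR IP 143, 129.6, 106 and 121 CPM. The control groups did not overlap, whereas in DTR the highest IP library (replicate 1) lay above the lowest input library (replicate 2). The LFC was -0.46 (SE 0.102, adjusted p = 0.00142) in control and -0.32 (SE 0.102, adjusted p = 0.0177) in DTR. The DTR call was lost without DTR IP replicate 3 (LFC -0.24, adjusted p = 0.0640), without DTR input replicate 1 (LFC -0.27, adjusted p = 0.0641) and with the compared groups alone (adjusted p = 0.0551).

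Its partner Hspe1 (HSP10), the lid of that chamber, was not called in either comparison. The libraries held 79.9, 77.5, 68.8 and 64.8 CPM in control input and 72.5, 60.6, 74.4 and 61.2 CPM in control IP. The groups overlapped, and the LFC was -0.10 (95% interval -0.42 to 0.22) in control and -0.13 (-0.45 to 0.19) in DTR, so that the interval includes no change and overlaps that of Hspd1 in both genotypes.

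Hsph1 (HSP105) is an HSP110 protein that releases clients from HSP70. It stood at 77.3, 48.1, 59.2 and 50.5 CPM in control input and at 56.1, 36.2, 31.4 and 30.9 CPM in control IP. In DTR input the values were 62.5, 46.0, 53.0 and 54.4 CPM and in DTR IP 52.8, 33.1, 29.2 and 33.7 CPM. Replicate 1 was the highest library in each group, and its IP value overlapped the input values of other replicates in both genotypes, although each pool was lower in IP than in input. The LFC was -0.61 (SE 0.188, adjusted p = 0.0143) in control and -0.59 (SE 0.188, adjusted p = 0.0181) in DTR. Without control input replicate 1 the control call was lost (LFC -0.48, adjusted p = 0.0620), and the DTR call was lost without DTR input replicate 1 (LFC -0.53, adjusted p = 0.0527) or without DTR IP replicate 3 (LFC -0.49, adjusted p = 0.0650).

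Hspa1b, one of the inducible HSP70 genes, held 7.24, 7.21, 9.21 and 7.22 CPM in control input and 3.89, 2.65, 4.29 and 4.02 CPM in control IP. The DTR input libraries held 10.5, 7.26, 7.74 and 6.67 CPM and the DTR IP libraries 7.55, 4.06, 3.81 and 1.74 CPM. Control IP and control input did not overlap, while in DTR the IP library of replicate 1 lay above 2 of the input libraries. The LFC was -0.86 (SE 0.277, adjusted p = 0.0191) in control and -0.95 (SE 0.277, adjusted p = 0.0106) in DTR. The control call was lost without control IP replicate 2 (LFC -0.68, adjusted p = 0.0728), without control input replicate 3 (LFC -0.76, adjusted p = 0.0580) and with no filter on low values (adjusted p = 0.0546), while the DTR call was kept under the same 28 alternatives.

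Hspa1a, the near-identical neighbour of Hspa1b on chromosome 17, was counted with 15, 31, 23 and 27 reads in control input and with 12, 12, 5 and 4 reads in control IP. These counts are 0.357, 0.873, 0.556 and 0.699 CPM in input and 0.359, 0.349, 0.147 and 0.131 CPM in IP. In DTR input it had 1.06, 0.946, 0.613 and 0.457 CPM and in DTR IP 0.482, 0.463, 0.265 and 0.789 CPM. The IP library was lower than its input in 6 of 8 pools. With no filter on low values the LFC was -0.60 (adjusted p = 0.0312) in control and -0.37 (adjusted p = 0.215) in DTR, at counts this low and with most of the sequence shared with Hspa1b.

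The remaining cytosolic genes were not called. Hspa8 held 1158, 884, 516 and 759 CPM in control input and 694, 744, 554 and 623 CPM in control IP, so that the groups overlapped, and IP was lower in 7 of the 8 pools. Its LFC was -0.20 (95% interval -0.69 to 0.28) in control and -0.32 (-0.80 to 0.16) in DTR. The control value rested on single libraries, at -0.00 without control input replicate 1 and -0.42 without control input replicate 3, and the DTR value was -0.15 without DTR IP replicate 3, -0.49 without DTR input replicate 3 and -0.51 after median centring of each library. Hsp90aa1, the inducible cytosolic HSP90, stood at 221, 229, 226 and 199.98 CPM in control input and 201, 197, 231 and 235 CPM in control IP, and IP was lower in 4 of the 8 pools. Its LFC of 0.03 (95% interval -0.19 to 0.26) in control excluded changes of the size found for Hspd1.

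Dnajb1 (HSP40), the J-domain protein that works with HSP70, held 85.0, 66.7, 71.2 and 74.6 CPM in control input and 65.2, 55.0, 65.6 and 76.9 CPM in control IP. In DTR input it held 85.6, 68.6, 70.5 and 74.7 CPM and in DTR IP 68.4, 56.9, 59.6 and 64.1 CPM. The control groups overlapped and the DTR groups did not, by a margin of less than 1 CPM. Its LFC was -0.17 (adjusted p = 0.274) in control and -0.28 (adjusted p = 0.0706) in DTR.

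Bag3, which links HSP70 and small heat shock proteins to autophagy, held 46.2, 44.4, 56.6 and 55.4 CPM in control input and 46.4, 36.6, 41.5 and 58.0 CPM in control IP. The DTR input libraries held 51.3, 48.4, 56.5 and 51.0 CPM and the DTR IP libraries 40.6, 39.1, 36.2 and 51.1 CPM. Replicate 4 was the highest IP library in both genotypes and overlapped input. The LFC was -0.18 (adjusted p = 0.382) in control and -0.35 (adjusted p = 0.0896) in DTR.

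Input and IP of a pool come from the same homogenate, and a fit that blocked on the pool (the replicate block) called 7 of the 9 genes lower in DTR IP in place of 4. The added genes were Hspa8 (adjusted p = 0.0468), Dnajb1 (adjusted p = 0.0292) and Bag3 (adjusted p = 0.0339), while the block left the 4 calls in control as they were. A curve of each library's values on exon length and GC content was also taken out, an alternative chosen after the data were seen, because the study corrected such an effect in IP before clustering. Dnajb1 was then called lower in control (LFC -0.27, adjusted p = 0.0381) and Dnajb1 (LFC -0.34, adjusted p = 0.0104) and Bag3 (LFC -0.43, adjusted p = 0.00845) in DTR. The study's criteria for IP enrichment were an LFC of at least 2, a separation above 1.5 and a level above the median. The median was taken here over the tested genes, and the criteria were applied to the limma calls, whereas the study used DESeq2. These criteria were met by 0 of the 9 genes in either genotype, against 0.535% of all genes in control and 0.506% in DTR. None of the 9 reached that LFC at any separation.

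**Figure D3:**
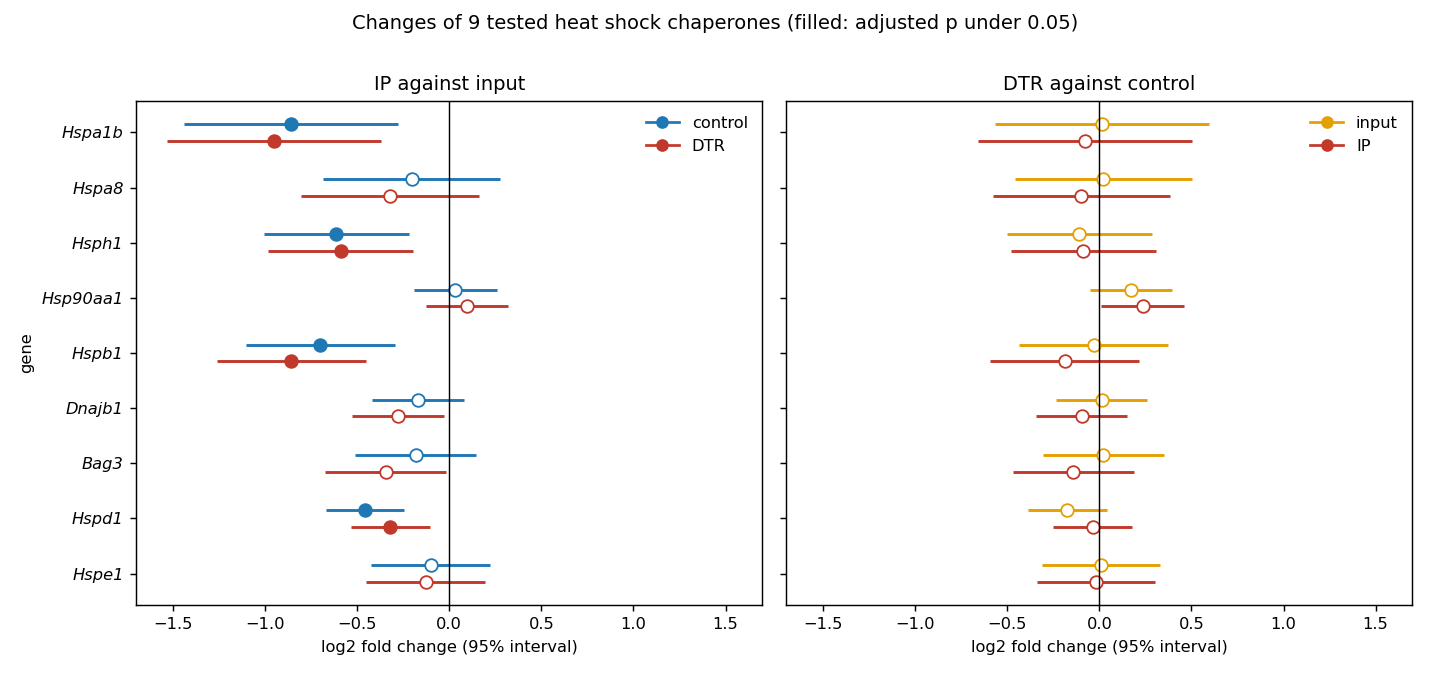
LFC of the 9 tested genes with 95% intervals from limma, for IP against input in control and DTR (left) and for DTR against control in input and IP (right), with filled points for an adjusted p under 0.05. Hspa1b, Hsph1, Hspb1 and Hspd1 are filled on the left in both genotypes, and no point on the right is filled.

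Markers of other cell types moved with the IP and input comparison. In control, 8 of 9 hair cell markers, 6 of 7 Schwann cell and glia markers, 8 of 8 macrophage markers, 5 of 6 endothelial markers and the 4 tested of 6 red blood cell markers were lower in IP. The remaining hair cell marker, Atoh1, was called higher in IP in both genotypes. Neuron markers were mixed in control, with 3 of 7 lower and 1 (Gata3) higher, and 4 of 7 mesenchyme markers were lower. In DTR 1 neuron marker was lower, and 1 mesenchyme marker was lower and 1 higher. Summed over the list, hair cell markers ranged from 674 to 840 CPM in control input and from 220 to 298 CPM in control IP. Schwann cell and glia markers ranged from 2652 to 4620 CPM in control input and from 860 to 1301 CPM in control IP. Macrophage markers ranged from 112 to 119 CPM in input and from 20.2 to 29.0 CPM in IP of the controls, and endothelial markers from 123 to 143 CPM and from 41.6 to 59.3 CPM. The part of these cells in the lower IP values of Hspb1, Hspa1b, Hsph1 and Hspd1 was not tested.

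The wider chaperone network was read from lists of 107 genes, of which 103 were tested and which hold no member of the set. In control IP against control input 15 rose and 29 fell, with a median LFC of -0.09, and in DTR 14 rose and 28 fell. These shares can be read beside the 19.3% higher and 20.7% lower over all genes in control. Of the 8 subunits of TRiC, the chaperonin that folds actin and tubulin in the cytosol, 6 fell in control and 6 in DTR. Examples are Cct8 (LFC -0.44, adjusted p = 0.00347 in control) and Cct6a (LFC -0.47, adjusted p = 0.00154), at 291 ± 12.4 and 287 ± 23.0 CPM in control input.

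Other HSP70 and HSP110 genes followed with 5 lower and 1 higher of 7 tested in control. Hspa4, an HSP110 relative of Hsph1, fell from 111 ± 4.53 to 76.4 ± 6.14 CPM (LFC -0.52, adjusted p = 0.00151). Hspa12a, a distant HSP70 relative, had the largest negative LFC of that list (-1.34, adjusted p = 0.000516). Hspa2, an HSP70 gene best known from germ cells, went the other way with 113 ± 6.84 CPM in IP against 59.3 ± 12.0 CPM in input of the controls (LFC 0.94, adjusted p = 4.86e-06).

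Hspa9, the mitochondrial HSP70 (mortalin), fell with Hspd1, with an LFC of -0.60 (adjusted p = 0.00248) in control and -0.52 (adjusted p = 0.00756) in DTR. Among J-domain proteins 4 of 20 rose and 6 fell in control. Dnaja1, another HSP70 partner, fell by 0.39 on the log2 scale (adjusted p = 0.0183), whereas Dnajb5 had an LFC of 1.87 (adjusted p = 9.15e-08). The transcription factor genes moved the other way from the 4 chaperones. Hsf1, which encodes HSF1, had 57.5 ± 6.60 CPM in IP of the controls against 42.9 ± 3.32 CPM in their input (LFC 0.41, adjusted p = 0.0165). Hsf2, a related factor, stood at 12.5 ± 2.77 and 5.72 ± 1.04 CPM (LFC 1.11, adjusted p = 0.000113).

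The second question is whether these transcripts changed after ablation of Lgr5+ cells. None of the 9 tested chaperones was called in DTR IP against control IP or in DTR input against control input (0 of 9 in both directions by limma, by edgeR and by DESeq2). Over all genes tested, 8.44% were called higher and 7.3% lower in IP, and 7.17% higher and 5.21% lower in input. At an unadjusted p under 0.05, limma gave 1 gene in IP (Hsp90aa1) and 0 in input, edgeR gave 0 in both, and DESeq2 gave 0 in IP and 1 in input (Hspd1).

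The 95% intervals give the range of changes that this fit leaves possible. In IP the LFC of the 9 genes ran from -0.19 to 0.24 with adjusted p between 0.155 and 0.955, and the 95% intervals stayed within 0.633-fold and 1.42-fold, both bounds belonging to Hspa1b. In input the LFC ran from -0.17 to 0.17 with adjusted p between 0.330 and 0.984, within 0.675-fold and 1.51-fold, again set by Hspa1b. Without that gene the bounds were 0.663-fold and 1.38-fold in IP and 0.705-fold and 1.42-fold in input. The median LFC of the 9 genes was -0.09 in IP and 0.01 in input, beside -0.00 and -0.02 over all genes.

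Hsp90aa1 came closest to a call. The control IP libraries held 201, 197, 231 and 235 CPM, and those of DTR IP 242, 226, 254 and 262 CPM. The DTR library was higher in 4 of 4 replicate numbers, but 1 DTR library (226 CPM) lay below 2 control libraries. Its LFC was 0.24 (95% interval 0.01 to 0.46, adjusted p = 0.155) in IP, but 0.11 by edgeR and by DESeq2 and 0.15 after median centring of each library. Over the 28 alternatives run, the IP value ranged from 0.11 to 0.29, with a lowest adjusted p of 0.0789. The DTR input libraries held 289, 244, 249.9 and 199.5 CPM, with an LFC of 0.17 (95% interval -0.05 to 0.40, adjusted p = 0.366), and were higher than control input in 3 of 4. The input value ranged from 0.10 to 0.26 over the same alternatives, with a lowest adjusted p of 0.118.

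For Hspb1 the libraries of both genotypes lay within 3.60 to 5.66 CPM in IP and within 6.88 to 11.3 CPM in input, and the groups overlapped. Its LFC after damage was -0.19 (95% interval -0.59 to 0.22) in IP and -0.03 (-0.43 to 0.37) in input. Hspa1b was spread most widely in DTR IP, where replicate 1 held 7.55 CPM and replicate 4 held 1.74 CPM, and its LFC was -0.08 (-0.66 to 0.50) in IP and 0.02 (-0.57 to 0.60) in input. The sign of the IP value was not stable, with 0.12 by edgeR and by DESeq2, 0.23 without DTR IP replicate 4 and -0.35 without DTR IP replicate 1, and it was not called in any of these.

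Hspa8 in DTR IP held 618, 643, 412 and 657 CPM and in DTR input 982, 874, 572 and 819 CPM, and both ranges overlapped those of the controls. Its LFC was -0.10 (95% interval -0.58 to 0.38) in IP and 0.02 (-0.46 to 0.50) in input. Dnajb1 was bounded more closely, with an LFC of -0.10 (-0.34 to 0.15) in IP and 0.01 (-0.24 to 0.26) in input, and Hspd1 had -0.04 (-0.25 to 0.18) and -0.17 (-0.39 to 0.04). A p that misses the threshold does not show that the groups were alike, and for Hspa1b and Hspa8 rises of up to 1.42-fold in IP for Hspa1b and in input for Hspa8 remain within the intervals.

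The study's criteria for damage were an FDR under 0.05, an absolute LFC of at least 1 and a separation above 1.5. The study used DESeq2, whereas they were applied here to the limma calls. They were met by 0 of the 9 genes in IP and 0 in input, against 2.47% and 2.34% of all genes. These shares belong to the limma fit and are not the study's own counts. The difference between IP and input in the change after damage (the interaction) was called for 0 of 9 genes by limma, with 0 at an unadjusted p under 0.05 and 0 by edgeR or DESeq2, where over all genes 0% were called higher and 0.0118% lower. Its 95% intervals were wide, from 0.530-fold to 1.66-fold for Hspa1b and from 0.575-fold to 1.48-fold for Hspa8. Differences within these bounds were not excluded.

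**Figure D4:**
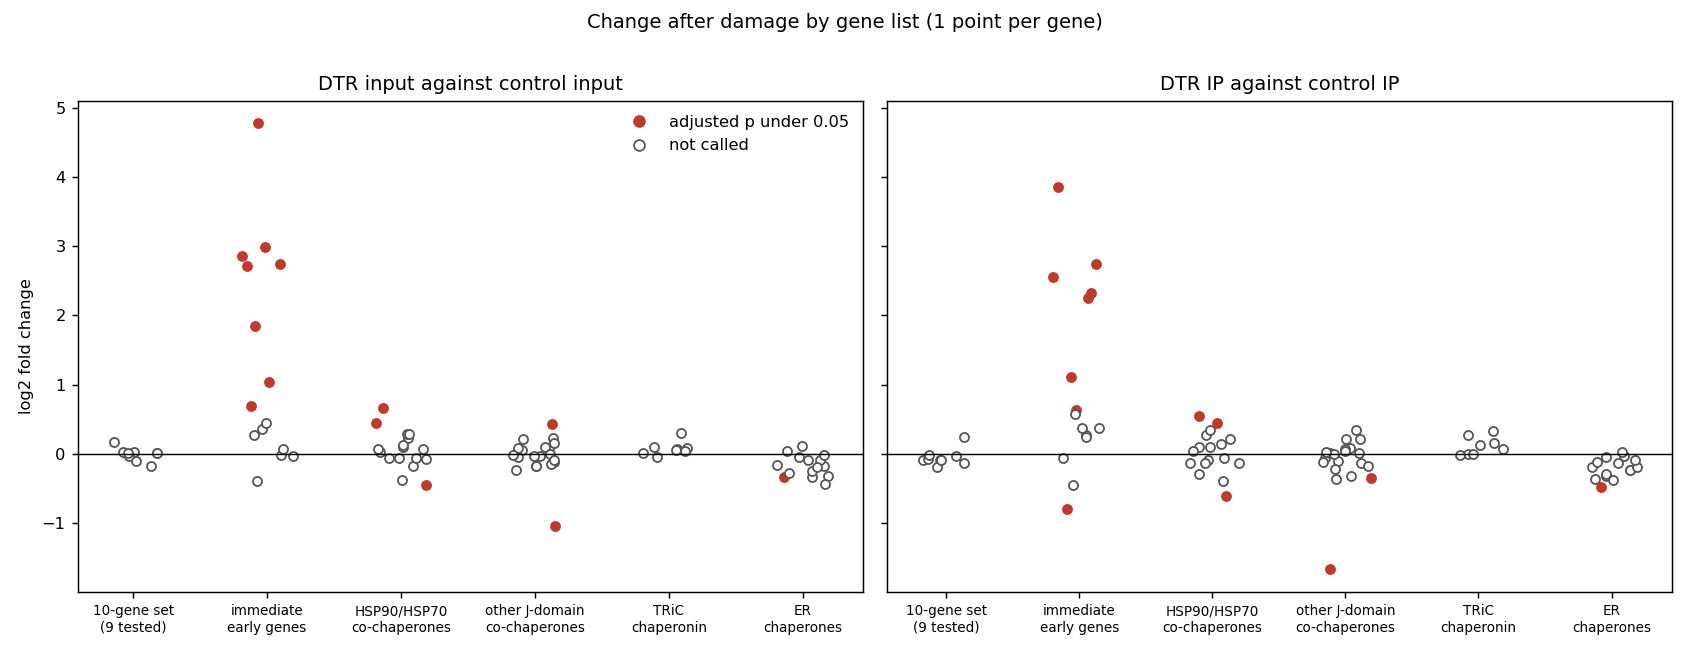
LFC of DTR against control in input (left) and IP (right), 1 point per gene, for the 9 tested chaperones and for 5 other gene lists, with filled points for an adjusted p under 0.05. The 9 chaperones lie between -0.19 and 0.24 in both panels, while Egr1 reaches 4.79 in input and 3.85 in IP.

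Other stress-related genes did change in the same libraries. Of 15 immediate early genes, which respond within minutes to growth factors, injury or stress, 7 rose and 1 fell in IP and 8 rose in input. Egr1 in IP went from 49.9 ± 8.13 CPM in control to 767 ± 408 CPM in DTR (LFC 3.85, adjusted p = 1.35e-06). Jun went from 43.7 ± 6.81 to 286 ± 56.7 CPM in IP (LFC 2.75, adjusted p = 3.86e-09).

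Atf3, a transcription factor of the stress response, went from 2.35 ± 0.711 to 17.7 ± 3.68 CPM in IP (LFC 2.55, adjusted p = 1.95e-07) and Fos from 8.14 ± 0.822 to 49.9 ± 25.5 CPM (LFC 2.33, adjusted p = 5.51e-05). In control IP the means of these 4 genes, from 2.35 to 49.9 CPM, spanned those of Hspb1 and Bag3.

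Within the chaperone network 6 of 103 genes rose and 5 fell in IP, and 5 rose and 5 fell in input. The shares over all genes tested were 8.44% higher and 7.3% lower in IP and 7.17% and 5.21% in input, so these counts show nothing particular to the network, and the genes that follow are single calls. Cryab (alpha B-crystallin), a small heat shock protein related to Hspb1, in IP reached 668 ± 95.7 CPM in DTR against 360 ± 65.4 CPM in control (LFC 1.00, adjusted p = 3.68e-05). In input its LFC was 0.42 (adjusted p = 0.0517). Hspb2, its neighbour in the genome and in the protein family, rose in IP as well (LFC 0.62, adjusted p = 0.00381), with 17.6 ± 1.48 CPM against 10.7 ± 0.772 CPM.

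Among 17 co-chaperones of HSP90 and HSP70, Chordc1, Stip1 and Fkbp4 were called in both IP and input. Stip1 (HOP), which hands clients from HSP70 to HSP90, rose by an LFC of 0.44 (adjusted p = 0.0290) in IP and 0.44 (adjusted p = 0.0360) in input. Chordc1, an HSP90 binding protein, rose by 0.54 (adjusted p = 0.0466) in IP and 0.66 (adjusted p = 0.0169) in input. Fkbp4, an HSP90 partner in steroid receptor complexes, fell by 0.61 (adjusted p = 0.00356) in IP and by 0.46 (adjusted p = 0.0281) in input.

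Hspa2 fell after damage, from 113 ± 6.84 to 61.1 ± 4.69 CPM in IP (LFC -0.91, adjusted p = 1.98e-05) and with an LFC of -0.62 (adjusted p = 0.00112) in input. Dnajc6 (auxilin), which works with Hspa8 to strip clathrin from vesicles in neurons, fell from 9.17 ± 1.83 to 2.92 ± 1.36 CPM in IP (LFC -1.67, adjusted p = 6.97e-05). The other network genes called were Clpx and Hsf2bp (higher) and Dnajb2 and Pdia4 (lower) in IP, and Clpx, Dnajb4 and Grpel1 (higher) and Hspa12b and Canx (lower) in input. Clpx, which unfolds proteins for a mitochondrial protease, had an LFC of 0.49 (adjusted p = 0.00376) in IP and 0.51 (adjusted p = 0.00285) in input. None of the 8 TRiC subunits, 6 prefoldin subunits or 3 other HSP90 genes was called in IP or input after damage. Hsf1 and Hsf2 were not among the genes called after damage, and Hsf1 in IP stood at 57.5 ± 6.60 CPM in control and 60.3 ± 10.4 CPM in DTR.

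Markers of cell types moved with damage too. Of 6 markers of LGR5 supporting cells 5 fell in IP and 6 in input, and their summed level went from 949 to 1101 CPM in control input to between 410 and 497 CPM in DTR input. Of 8 macrophage markers 6 rose in IP and 6 in input, where their sum went from 112 to 119 CPM to between 162 and 260 CPM. Of 7 Schwann cell and glia markers 2 fell in IP and 5 in input, where their sum ranged from 2652 to 4620 CPM in control and from 1349 to 2086 CPM in DTR without overlap. Of 7 mesenchyme markers 4 rose in IP and 1 in input, and in IP their sum ranged from 5010 to 6212 CPM in control and from 6431 to 7945 CPM in DTR. Among 8 markers of supporting cells and the greater epithelial ridge 3 fell in IP (Fabp7, Sox2 and Tecta), while in input 2 rose and 2 fell. Hair cell markers were mixed in IP, where 2 of 9 rose and 1 fell, and 1 fell in input. Among 7 neuron markers 1 fell in IP and 1 in input, and 1 of 6 endothelial markers rose in IP. Whether changes of opposite sign in different cells cancelled in the values of the chaperones was not tested.

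Replicate numbers carried part of the spread of these genes. Hspa8 was lowest in replicate 3 in 4 of 4 groups, at 516 and 572 CPM in input and 554 and 412 CPM in IP of control and DTR. Hsph1 and Hspd1 were highest in replicate 1 in 4 of 4 groups, and Dnajb1 was lowest in replicate 2 in 4 of 4 groups. Input and IP of the same number and genotype share a homogenate, so the 4 groups are not independent. The genes named are those of the 10 that reached 4 of 4 groups. The labels do not say what same-numbered pools shared. Over all tested genes, same-numbered libraries of different groups deviated together, with a lowest correlation of 0.288 over the same-numbered pairs in the 4 pairs of groups compared.

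**Figure D5:**
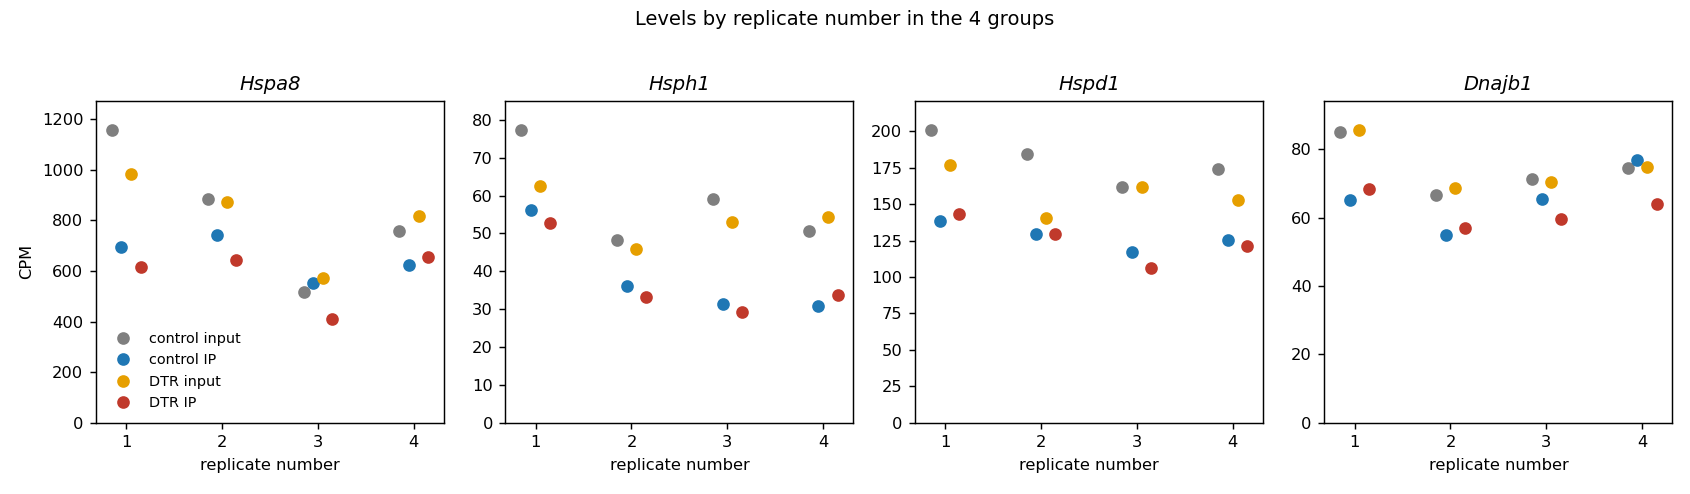
CPM of Hspa8, Hsph1, Hspd1 and Dnajb1 in each library, by replicate number, with 1 colour per group. Hspa8 is lowest at replicate 3, Hsph1 and Hspd1 are highest at replicate 1, and Dnajb1 is lowest at replicate 2 in all 4 groups.

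The genes whose pattern was most like that of the most variable members were found by Pearson's r of log2 values over the 16 libraries, which share 8 pools and hold the difference between IP and input, so that r is a description. Hspa1b varied most (SD 0.61 on the log2 scale), and nearest to it were Heatr3 (r = 0.89), Nr4a1 (0.88), Syn3 (0.88), D10Wsu102e (0.88) and Gsg1l (0.87). Hspb1 came next (SD 0.47), and nearest to it were Cdkn2d (r = 0.95), Stard10 (0.93), Ehd4 (0.93), Gde1 (0.93) and Gm30191 (0.92). Each of these 10 genes had a lower mean in IP than in input in both genotypes, as in the case of Cdkn2d with 33.9 CPM in IP and 45.5 CPM in input of the controls.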

How the data were processed

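CPM for each gene in each library were deposited by the authors. Their methods give alignment to GRCm38 with HISAT2 and counting with HTSeq, whereas the submitters' processing notes name TopHat. The annotation release and the strand setting are not given in the sources used here, and the library kit (SMART-Seq v4) does not mark strand. Each column summed to 1000000, and 100% of the values were whole multiples of 1 read (tolerance 0.01 read), so that whole reads were recovered for edgeR and DESeq2. Of 50316 genes listed, 2587 were NA in every library.

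Values entered the tests as log2 of quantile-normalized CPM plus 0.5. A gene was kept where every library of some group reached 0.5 CPM, and limma (version 3.58.1, R 4.3.3) was run on all 16 libraries with a mean-variance trend, two-sided, with Benjamini-Hochberg adjustment over 16994 genes. The procedure was also run on simulated data in which all libraries were drawn independently. That run cannot show how the fit performs where libraries share a pool. Separation divides the lowest library of the higher group by the highest library of the other, after a floor at the 10th percentile (1.08 CPM). The study pooled cochleae of several mice for each replicate, so p-values rest on the spread between libraries of such pools. The main fit held no term for the pool, so input and IP of a pool entered it as independent libraries. Their pairing entered the replicate block only. Replicate numbers were taken to pair libraries, since input and IP share a homogenate and since the deviations of same-numbered libraries correlated at 0.288 or more in the 4 pairs of groups compared (IP with input in each genotype, DTR with control in each sample type). The block was the pool for IP against input and for the interaction, and the replicate number for DTR against control.

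Alternatives were other scalings, pseudocounts of 0.1 and 1, no filter or at least 2 CPM, the compared groups alone, the replicate block, edgeR (version 4.0.16, with TMM or DESeq2 size factors), DESeq2 (version 1.42.0), each library left out in turn, and, chosen after the data were seen, length and GC content removed. Gene positions, lengths and shared 75-base windows came from GENCODE M21 and promoters from RefSeq. The 10 genes and all lists were chosen with earlier results of these data known. Of each list the text names up to 4 genes with the largest changes among those called, and further genes (Hspa9, Dnaja1, Hspa4, Cct8 and Cct6a among them) were named after their values were seen. The 95% intervals come from limma and rest on the spread between libraries, whereas the CPM given for 3 reads covers counting error only, since reads of amplified libraries are not independent molecules. Protein sequences were not used here.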

Additional observations from a re-analysis of the deposited data

Results flagged for a closer look

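Single libraries stood apart from the other 3 of their group in 3 of 40 groups examined (10 genes in 4 groups), where the gap to the nearest library over the range of the group exceeded Dixon's 95% critical value, and chance alone gives about 2 of 40. Hspa1b in control input was highest in replicate 3, with 9.21 CPM and a gap over range of 0.982. Hspa8 in DTR IP was lowest in replicate 3, with 412 CPM and a gap over range of 0.839. Hspe1 in DTR IP was highest in replicate 3, with 88.6 CPM and a gap over range of 0.845. The Hspa8 library belongs to the replicate number that was lowest for this gene in all 4 groups. Explanations for these libraries were not tested.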

How the results depend on the processing

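The counts of genes called in DTR IP against control IP, in DTR input against control input and in the interaction were 0 under every alternative run. In control IP against control input the count was 4 or 5 under the alternatives that keep all libraries and ranged from 3 to 4 with 1 library left out. With no filter on low values, where 10 genes were tested, the 4 included Hspa1a and no longer Hspa1b. In DTR IP against DTR input the replicate block gave 7 in place of 4, the compared groups alone gave 3, and leaving out 1 library gave between 2 and 6. The lowest count came without DTR IP replicate 3 or without DTR input replicate 1, where Hspd1 and Hsph1 were lost, and the highest without control IP replicate 4, where Dnajb1 (adjusted p = 0.0395) and Bag3 (adjusted p = 0.0468) were added. Dnajb1 was also called without control IP replicate 2 (adjusted p = 0.0435) and Bag3 without DTR IP replicate 4 (adjusted p = 0.0251). No called LFC changed sign. The replicate block changed no other call. The causes of these differences were not tested. Depth limits Hspa1a most, with 4 to 36 reads per library, and Hspa1b with 53 to 381 reads.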
